A study of Mus musculus with 2 samples.

Results

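The T and NK cells described here were 110 of the 19161 cells that passed the cell filters in 2 single-cell RNA-seq libraries from mouse whole brain. They were chosen by their transcripts: a sum of at least 3 UMIs (unique molecular identifiers, each standing for 1 captured transcript molecule) over Cd3e, Cd3d, Cd3g, Trbc2 and Nkg7, at most 4 UMIs over C1qa, C1qb and C1qc, no Cd79a UMI and fewer than 20 UMIs over S100a8 and S100a9. The levels of these genes in the members are therefore a description. The rule took 38 cells from the heterozygous library and 72 from the homozygous library.

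The study compared brain macrophages and vascular cells of mice with 1 or with 2 copies of a LacZ allele of the cytokine gene Il34, IL34LacZ/+ (heterozygous) and IL34LacZ/LacZ (homozygous), and both genotypes carry at least 1 LacZ allele. Cells were sorted by surface markers for microglia, border-associated macrophages (BAMs), endothelial cells, astrocytes, and mural cells with fibroblasts, and no gate was set for lymphocytes. There was 1 library per genotype, made with the 10x Genomics 3′ v3.1 chemistry, and no source used here gives the age, sex or number of mice behind each. The cells of 1 library are not replicates of a genotype, so no difference between the libraries has a replicate check, no p-value is given, and every interval below covers counting error only.

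T cells recognise antigen through a receptor whose alpha and beta (or gamma and delta) chains are carried to the surface by the CD3 chains, encoded by Cd3e, Cd3d, Cd3g and Cd247. NK cells lack that receptor and are steered by germline-encoded receptors of the Klr and Ncr families, and they share with CD8 T cells a cytotoxic programme of granzymes, perforin and the granule membrane protein NKG7. In the healthy brain both are scarce and lie mostly in the meninges, the choroid plexus and around vessels. IL-34 is a ligand of the receptor CSF1R, which is found on microglia and other macrophages.

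The rule turns on a cluster of CD3 genes on chromosome 9 and on Nkg7 on chromosome 7, and the stretches just before their start sites are shown because these genes chose the cells. The sequences are the 250 bases upstream of the RefSeq start in build GRCm38.p6, 5′ to 3′ on the gene's strand, and capitals mark matches on either strand to TGTGGT, the core word of Runx factors, or AGGAAG, a word bound by ETS factors. The word TGTGGT occurs in 14.0% of 32851 such promoter windows of 300 bases and AGGAAG in 29.5%, and the matches below do not overlap.
Cd3e, chr9:45009612-45009861, minus strand: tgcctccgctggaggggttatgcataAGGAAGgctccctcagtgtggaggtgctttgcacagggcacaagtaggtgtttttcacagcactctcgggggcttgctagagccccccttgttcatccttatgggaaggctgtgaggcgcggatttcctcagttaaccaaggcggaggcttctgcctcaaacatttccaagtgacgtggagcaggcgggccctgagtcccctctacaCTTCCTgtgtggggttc
Cd3d, chr9:44981536-44981785, plus strand: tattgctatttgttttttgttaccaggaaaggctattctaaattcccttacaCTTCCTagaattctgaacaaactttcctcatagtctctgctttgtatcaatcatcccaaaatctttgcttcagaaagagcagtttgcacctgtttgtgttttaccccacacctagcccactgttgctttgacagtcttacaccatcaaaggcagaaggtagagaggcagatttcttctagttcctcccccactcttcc
Cd3g, chr9:44980432-44980681, minus strand: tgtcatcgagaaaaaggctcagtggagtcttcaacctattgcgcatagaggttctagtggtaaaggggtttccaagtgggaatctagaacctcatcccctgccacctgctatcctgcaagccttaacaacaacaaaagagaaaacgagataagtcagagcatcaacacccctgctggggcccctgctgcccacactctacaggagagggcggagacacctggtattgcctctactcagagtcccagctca
Nkg7, chr7:43436888-43437137, plus strand: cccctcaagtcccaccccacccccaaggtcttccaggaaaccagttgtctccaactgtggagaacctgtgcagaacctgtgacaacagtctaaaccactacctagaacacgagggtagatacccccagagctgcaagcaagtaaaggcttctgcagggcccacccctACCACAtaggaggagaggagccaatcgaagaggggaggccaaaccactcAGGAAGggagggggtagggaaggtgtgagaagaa
The ETS word occurred 2 times before Cd3e, 1 time before Cd3d, 0 times before Cd3g and 1 time before Nkg7. The Runx word occurred 1 time before Nkg7 and 0 times before the CD3 genes. A match is a run of letters and not a binding site. Cd3g (chr9:44969572-44980431, minus strand) and Cd3d (chr9:44981786-44987339, plus strand) lie head to head in GENCODE vM21 (GRCm38), with Cd3e (minus strand) at chr9:44998740-45009627 and Nkg7 (plus strand) at chr7:43437073-43438249.

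The libraries held 17168 and 18858 barcodes, of which 8812 heterozygous and 10349 homozygous barcodes passed the filters (at least 1000 UMIs, 500 genes and at most 10% mitochondrial UMIs), with medians of 3665.5 and 3838 UMIs. The members had medians of 4140 UMIs (1029 to 36117) and 4903.5 UMIs (1006 to 41861). The libraries shared 103 cell barcodes, and no member was among them. Ddx3y, a Y-linked gene, stood at 128 and 126 CPM (counts per 1000000 UMIs) in cells with at least 20 C1q UMIs, so both libraries held cells of male mice.

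The members made up 0.431% (exact 95% Clopper-Pearson interval 0.305 to 0.591) of the heterozygous cells and 0.696% (0.545 to 0.875) of the homozygous cells, intervals that overlap. The shares were 0.714% and 0.921% at a mitochondrial limit of 5%, 0.216% and 0.358% with no C1q UMI allowed, and 0.295% and 0.377% without Nkg7 in the rule. Just outside the rule, 3 heterozygous and 5 homozygous cells had a marker sum of 2, and just inside it 2 and 4 cells had a sum of 3. A further 6 and 11 cells met every condition except the S100a8 and S100a9 limit, 1 and 8 except the C1q limit, and 0 and 1 except the Cd79a limit. Endothelial cells were taken among the non-members, by at least 10 UMIs over Cldn5, Flt1, Pecam1 and Ly6c1 and at most 4 C1q UMIs. In them each of the 5 genes reached 0 to 6 UMIs over the 1896 heterozygous or 1811 homozygous cells. Their median depths were 2330.5 and 2357 UMIs. These levels are under 1 CPM for every gene of the rule. Cells that met the rule had been taken out beforehand, so the low levels were partly fixed by the selection and do not check the rule.

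The members were sorted by gates set on the raw UMIs. The 3 CD3 genes belong to the rule, so the T-like gate describes the cells and does not check their label, which was set against Trac, NK receptors and markers of other cells that the rule did not use. The T-like gate asked for at least 2 UMIs over Cd3e, Cd3d and Cd3g. An NK-like gate asked for none of these and at least 2 UMIs over 7 NK receptor genes (Ncr1, Klrb1c, Klre1, Klra4, Klra7, Klra8 and Klra9). Of the 110 cells, 62 (56.4%) were T-like, 21 (19.1%) NK-like and 27 (24.5%) fell in neither gate and are called intermediate. The gates left few cells near their limits: 1 heterozygous and 3 homozygous cells had 2 or 3 CD3 UMIs, and 1 in each library had exactly 1. The T-like gate set no limit on NK receptors, and 3 of 24 heterozygous and 4 of 38 homozygous T-like cells had at least 2 NK receptor UMIs. Gates are ranges of UMIs and not types.

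**Figure D1:**
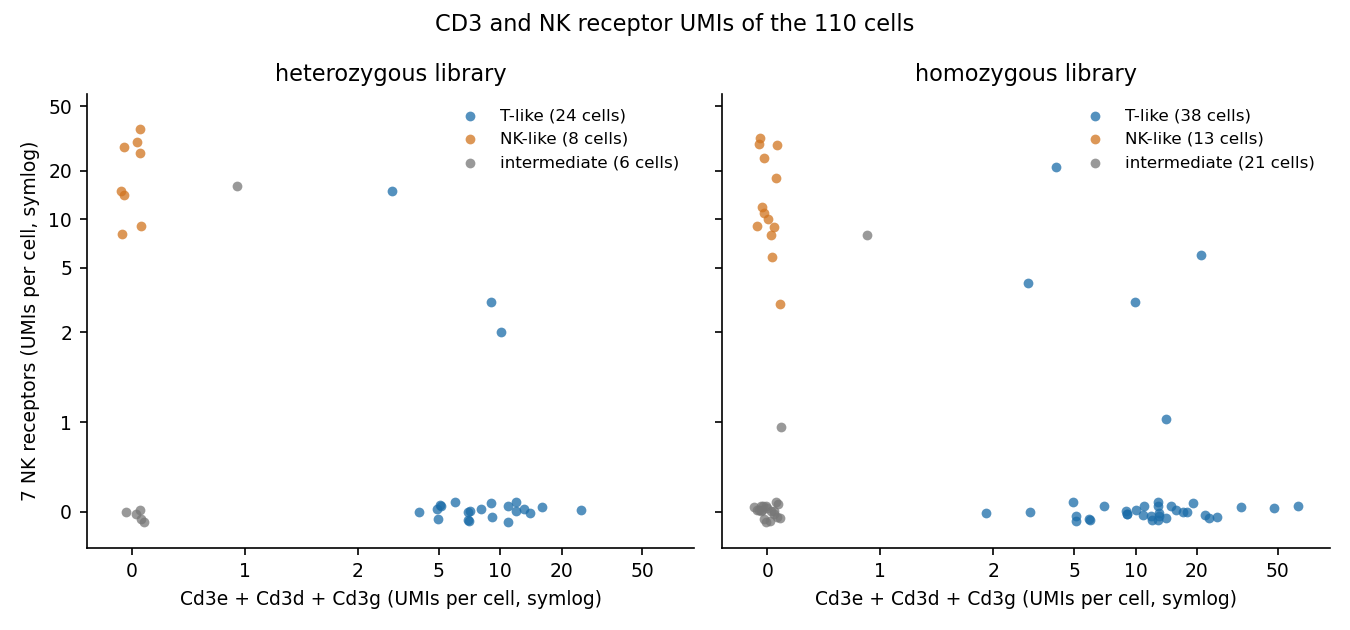
Each point is 1 of the 110 cells, placed by its UMIs over the 3 CD3 genes (x) and over the 7 NK receptors (y), both on symmetric log axes with a small jitter, and coloured by gate. Most T-like cells (24 heterozygous, 38 homozygous) lie along the bottom, but 3 of 24 and 4 of 38 have at least 2 NK receptor UMIs. NK-like cells (8 and 13) lie along the left side, and most of the intermediate cells (6 and 21) sit at 0 on both axes.

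The heterozygous library held 24 T-like cells (63.2% of its members, 46.0 to 78.2), 8 NK-like cells (21.1%, 9.55 to 37.3) and 6 intermediate cells (15.8%, 6.02 to 31.3). The homozygous library held 38 (52.8%, 40.7 to 64.7), 13 (18.1%, 9.98 to 28.9) and 21 (29.2%, 19.0 to 41.1). Every pair of intervals overlaps. Counted against all cells, T-like and NK-like cells together were 32 of 8812 (0.363%, 0.249 to 0.512) and 51 of 10349 (0.493%, 0.367 to 0.647), and the intermediate cells were 0.0681% (0.0250 to 0.148) and 0.203% (0.126 to 0.310). Leaving out the intermediate cells thus brought the libraries' shares closer. The sort did not target lymphocytes, so these shares follow the sort as well as the tissue.

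In T-like cells the rule and the gate fixed the presence of CD3 transcripts, so their levels are descriptive. Cd3e, the CD3 epsilon chain, had 59 UMIs in 21 of 24 heterozygous cells (388 CPM) and 175 UMIs in 36 of 38 homozygous cells (694 CPM). Trbc2, a constant region of the beta chain, had 138 UMIs in 23 cells (907 CPM) and 252 UMIs in 36 cells (1000 CPM), although reads of Trbc2 and its near copy Trbc1 can be hard to tell apart. Trac, the alpha constant region, which the rule did not use, had 31 UMIs and 102 UMIs. The alpha constant region was thus detected in 28 of 38 homozygous and in 16 of 24 heterozygous T-like cells. Variable segments were rarely reached by these 3′ tags: Trav genes gave 9 UMIs in 6 heterozygous and 2 UMIs in 2 homozygous T-like cells, and Trbv genes gave 3 and 2.

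NK-like cells carried the cytotoxic set, which the gate did not use apart from Nkg7 in the rule. Gzma, granzyme A, had 325 UMIs in 8 of 8 heterozygous cells (8499 CPM) and 419 UMIs in 11 of 13 homozygous cells (12206 CPM). In T-like cells Gzma had 0 UMIs in the heterozygous and 36 in the homozygous library, all 36 in 1 cell. That cell had 4 CD3, 21 NK receptor, 21 Nkg7 and 66 Ccl5 UMIs and no Trac, Trbc1 or Trbc2 UMI. Prf1, the pore former perforin, had 17 UMIs in 5 and 36 UMIs in 7 NK-like cells, against 6 UMIs in 5 and 14 UMIs in 9 T-like cells. Ccl5, a chemokine stored by cytotoxic lymphocytes, reached 12133 and 19459 CPM in NK-like cells and 2372 and 3622 CPM in T-like cells. Trac was at 0 UMIs in NK-like cells of both libraries, which allows up to 78.4 and 87.4 CPM. The beta constant genes were present there: Trbc1 had 8 UMIs in 5 of 8 and 12 UMIs in 7 of 13 NK-like cells, and Trbc2 had 5 and 2 UMIs. Trdc, the delta constant region, had 3 UMIs in 3 heterozygous and 5 UMIs in 5 homozygous NK-like cells. Eomes and Tbx21, transcription factors of the NK lineage, had 12 and 9 UMIs and 4 and 5 UMIs in the NK-like cells.

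**Figure D2:**
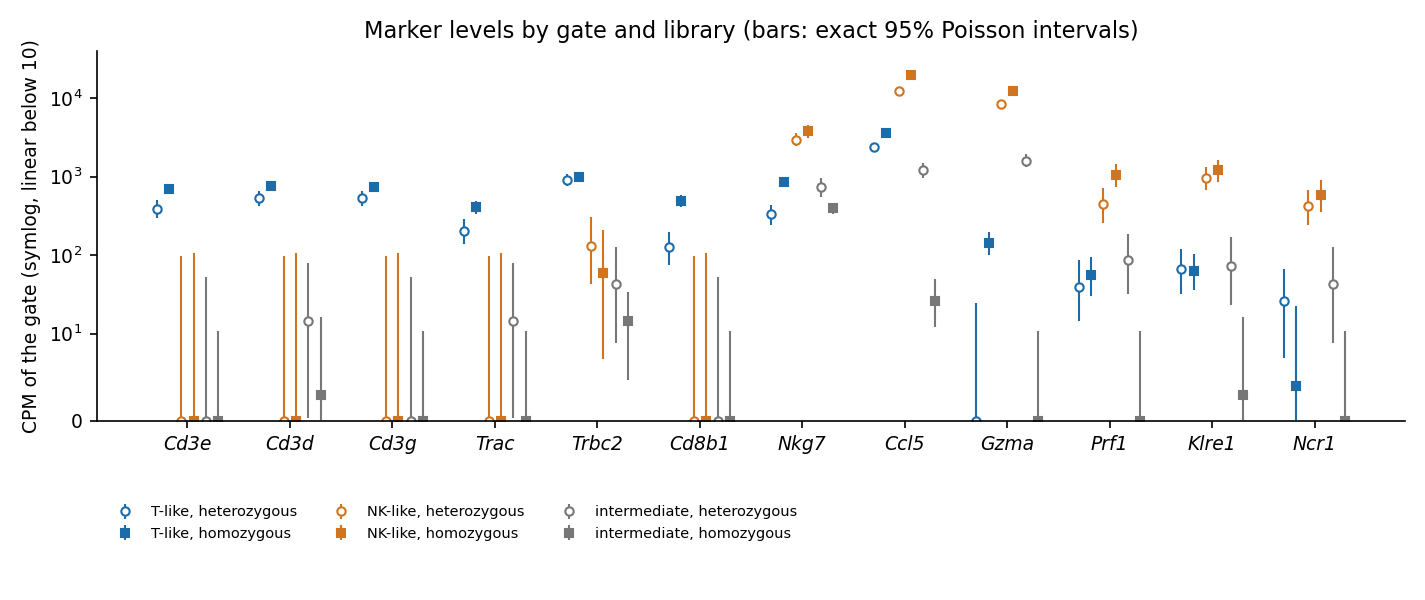
CPM of 12 marker genes on a symmetric log axis in the T-like, NK-like and intermediate cells of each library, summed over the cells of a gate, with exact 95% Poisson intervals. CD3 genes and Trac mark the T-like cells of both libraries, and Gzma, Klre1 and Ncr1 the NK-like cells. The intermediate cells are low for both sets except for Nkg7 and, in the heterozygous library, Ccl5 and Gzma. Among them, 1 heterozygous cell had all 111 Gzma UMIs and 77 Ccl5 UMIs, and 1 other heterozygous cell had 7 Ccl5 UMIs.

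Most intermediate cells went against the label. Nkg7 was the sole gene of the rule with a UMI in 4 of 6 heterozygous and 18 of 21 homozygous intermediate cells, and over all intermediate cells it had 51 and 135 UMIs. In 15 of the 21 homozygous cells the monocyte, granulocyte progenitor or basophil and mast cell marker lists reached 20 UMIs, as they did in 3 of the 6 heterozygous cells. The granulocyte progenitor list (Mpo, Elane, Prtn3 and others, the proteases of immature granules) reached 20 UMIs in 13 of 21 and 1 of 6 cells, with up to 674 UMIs in 1 homozygous cell. The basophil and mast cell list reached 20 UMIs in 4 homozygous and 1 heterozygous cells. Mcpt8 and Prss34, 2 basophil proteases, had 269 and 761 UMIs in the homozygous cell with the most. In 1 of the 4 homozygous cells, with 31 UMIs of the list, Mcpt8 and Prss34 had 0 UMIs. Prg2, the eosinophil granule major basic protein, had 1313 and 504 UMIs in 2 other homozygous cells. Pf4, made by megakaryocytes and by some macrophages, had 308 UMIs in 1 heterozygous cell and 488 and 1493 UMIs in 2 homozygous cells. No other gene of the border-associated macrophage list had a UMI in these cells.

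Intermediate cells were also deep, with medians of 8260.5 and 17220 UMIs against 4064.5 and 4444.5 in T-like cells and 3324.5 and 2509 in NK-like cells. They held 26.8% of all heterozygous and 54.6% of all homozygous member UMIs. A few were near the gates: 1 heterozygous cell had 20 Nkg7, 16 NK receptor and 1 CD3 UMI, and 1 homozygous cell had 7, 8 and 1. Scrublet, a caller of barcodes that hold 2 cells, marked 2 of 6 and 4 of 21 intermediate cells, 1 of 24 and 1 of 38 T-like cells, and 2 of 8 and 0 of 13 NK-like cells.

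**Figure D3:**
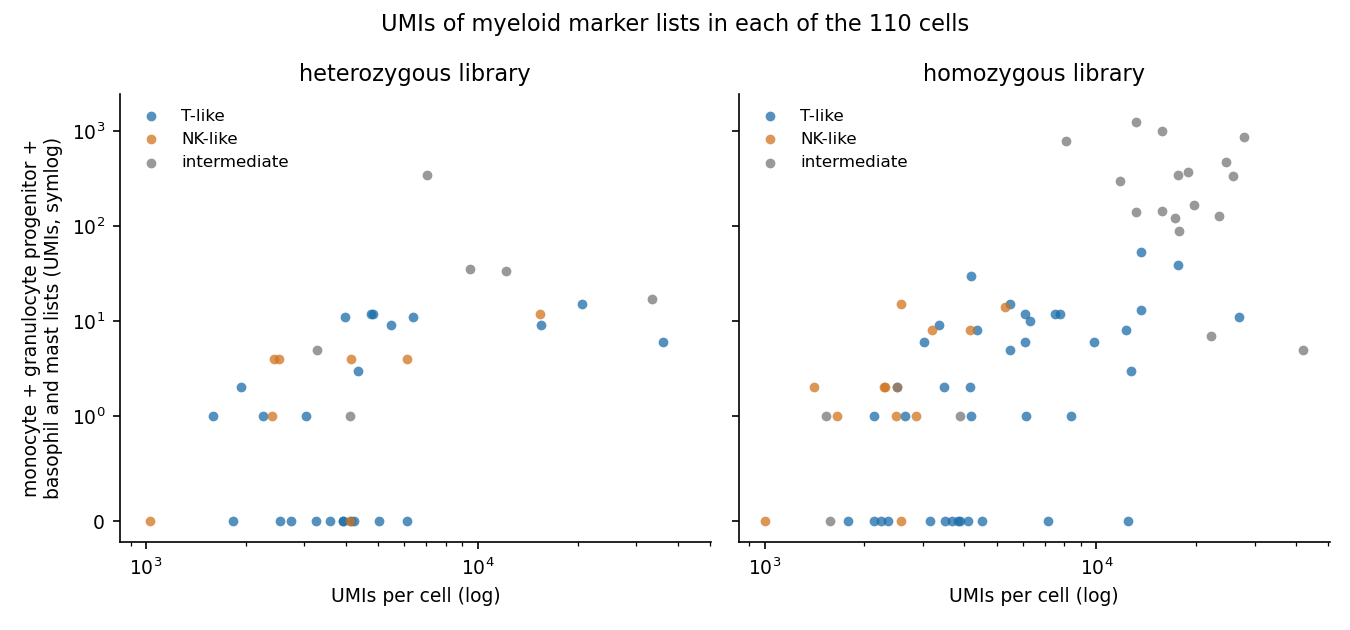
UMIs per cell (x, log axis) against UMIs over the monocyte, granulocyte progenitor and basophil and mast cell lists (y, symmetric log axis) for each of the 110 cells, by gate and library. Most homozygous intermediate cells form a group of deep cells with many UMIs of these lists, above the T-like and NK-like cells of the same library.

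Against all other cells of the series, the 15 genes with the largest ratio in the members included T cell genes (Cd3g, Cd3e, Trbc1, Trbc2, Trdc, Il17a), NK and cytotoxic genes (Gzma, Prf1, Gzmb, Xcl1, Klra4, Klre1) and eosinophil granule genes (Prg2, Prg3, Epx). Since the rule chose the cells, these ratios are descriptive. Il17a, a cytokine of type 17 lymphocytes, had 108 UMIs in the members and 0 in all other cells.

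Clustering the members split them into 6 groups along the same lines. One held 17 of the 21 NK-like cells (8 heterozygous and 12 homozygous cells in all) with Klra8, Klra9, Cma1, Ncr1 and Gzma in front, and 9 of its top 10 genes were on the NK marker list, so it is called NK-like. A group of 19 T-like cells (8 and 11) was led by Dapl1, H2-Eb1, Lef1 and Satb1, with S1pr1 and Tcf7 among its top 10, and is called naive T-like. In that group 100% of the H2-Eb1 UMIs came from 1 cell. The group of 21 intermediate cells (4 and 17) was led by Prg2, Prss34, Mcpt8, Elane and Prtn3. The other 3 groups stay unnamed: Il17a, Areg and Isg15 led one of 29 cells, but 75%, 100% and 80.8% of those UMIs came from 1 cell each. Another was led by Cd209a and MHC class II genes, with 100% of the Cd209a, H2-Aa and H2-Eb1 UMIs, 99.1% of the Cd74 UMIs and 97.8% of the H2-Ab1 UMIs in 1 cell, and the last, of 7 deep cells, by the fibroblast-associated genes Bnc2, Penk, Klf5, Fbln1 and Gas1.

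Among T-like cells, CD8 genes were more frequent in the homozygous library. CD8 cells (a Cd8a or Cd8b1 UMI and no Cd4 UMI) were 6 of 24 (25%, 9.77 to 46.7) and 19 of 38 (50%, 33.4 to 66.6), and the intervals overlap. After thinning each cell to 1000 UMIs they were 2 of 13 and 12 of 23, and at a mitochondrial limit of 5% the heterozygous share was 7.14%. CD4 cells were 5 and 6, cells with both 0 and 2, gamma delta cells 2 and 3, and cells with none of these 11 and 8. The CD8 beta chain gene Cd8b1 had 19 UMIs in 5 cells (125 CPM) in the heterozygous and 124 UMIs in 19 cells (492 CPM) in the homozygous library, a ratio of 3.94 (exact 95% interval 2.42 to 6.76). Its partner Cd8a had 8 and 51 UMIs, a ratio of 3.85 (1.81 to 9.39). Cd4, the co-receptor of helper T cells, had 10 UMIs in 5 cells and 20 UMIs in 8 cells, and brain macrophages also transcribe it, at 33.3 and 34.2 CPM in the cells with at least 20 C1q UMIs.

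**Figure D4:**
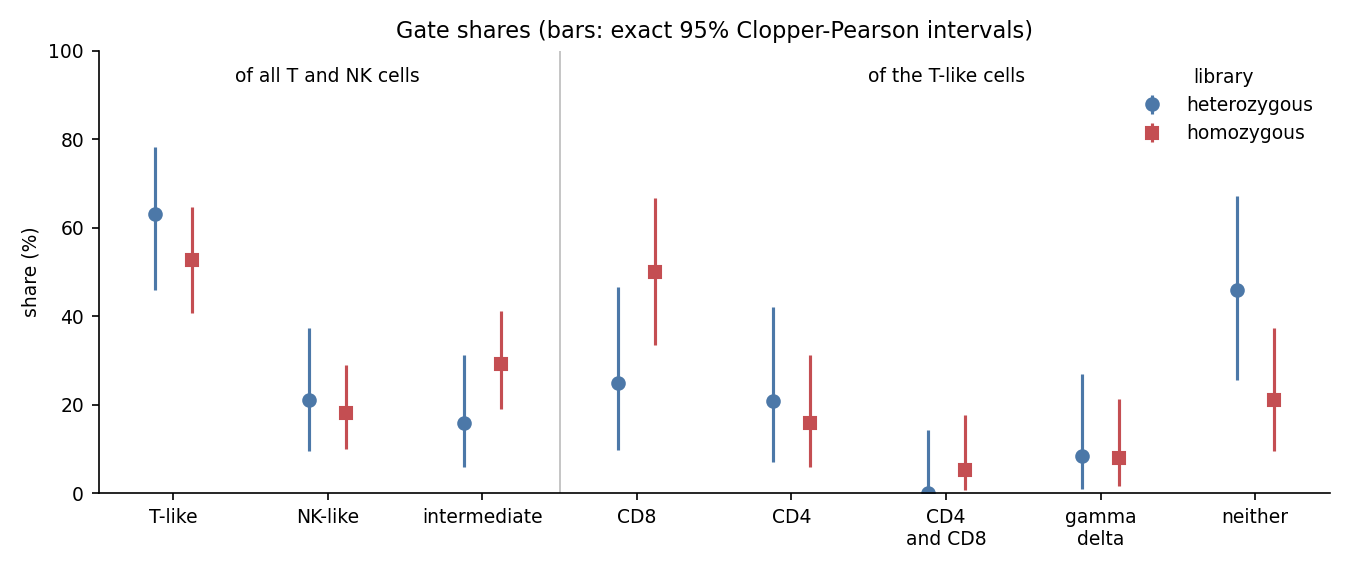
Shares of the members in each gate (left) and of the T-like cells in each subset (right), in percent, with exact 95% Clopper-Pearson intervals, for the heterozygous (circles) and homozygous (squares) library. CD8 cells were 25% and 50% of T-like cells, cells with no subset gene 45.8% and 21.1%, and all pairs of intervals overlap.

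CD8 cells carried most of the Ccl5 UMIs of the T-like cells and, in the homozygous library, most of the Nkg7 UMIs. Nkg7 had 21 UMIs in 4 of 6 heterozygous CD8 cells (568 CPM) and 172 UMIs in 18 of 19 homozygous CD8 cells (1128 CPM). Ccl5 had 256 UMIs in the heterozygous CD8 cells, 185 of them in 1 cell, and 777 UMIs in 13 of 19 homozygous CD8 cells. Gzmk, a granzyme of memory CD8 T cells, had 3 and 12 UMIs in the CD8 cells and 0 in the other T-like subsets. Cd40lg, the helper ligand CD40L, had 4 and 5 UMIs in CD4 cells and 0 in CD8 cells of both libraries. Foxp3, which defines regulatory T cells, had 0 UMIs in the T-like and NK-like cells of both libraries, a limit of 19.7 CPM in heterozygous and 11.9 CPM in homozygous T-like cells. Ctla4, an inhibitory receptor, had 12 UMIs in 3 heterozygous cells, 10 of them in 1 CD4 cell, and 6 UMIs in 4 homozygous cells.

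Il17a was found in 2 cells, both homozygous T-like cells of the gamma delta gate. One had 81 Il17a and 38 Trdc UMIs, with 13 UMIs of Mki67 and 30 of Top2a, a pair of genes of dividing cells, and the other had 27 Il17a and 5 Trdc UMIs. Of the gamma delta variable segments, Trdv4 had all 8 Trdv UMIs of the homozygous T-like cells, in 3 cells, and Trgv2 led the 10 Trgv UMIs in 5 cells. Blk, a kinase of interleukin-17-producing gamma delta T cells, had 5 UMIs in the 3 homozygous gamma delta cells and 0 in every other subset. Of the other gamma delta cells, neither of the 2 heterozygous cells nor the third homozygous cell had a Trdc UMI. Trac had 4 UMIs in 1 of the heterozygous cells and 2 UMIs in the homozygous cell with 27 Il17a UMIs, so the gate is weak in both libraries. Il34 was at 0 UMIs in T-like and NK-like cells of both libraries, and Csf1r, the receptor of IL-34, had 5 UMIs in 3 heterozygous and 11 UMIs in 8 homozygous T-like cells.

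The genotype comparison was made within the T-like cells, 24 against 38, since the mix of gates differed. The mix of subsets within the T-like cells differed too. CD8 cells held 36995 of 152179 heterozygous and 152418 of 252092 homozygous T-like UMIs. The part of this mix in the ratios was not tested, and only some genes are given by subset. With at least 50 UMIs over both libraries, 1047 genes could be compared, with a median ratio (homozygous over heterozygous CPM) of 1.03. Of these, 153 were at least 1.5-fold higher (14.6%) and 127 at least 1.5-fold lower (12.1%) in the homozygous library. A gene of low level can reach 50 UMIs through the library where it is high, and the homozygous T-like cells were the deeper group, so a count or median over the measured genes of a list does not describe the whole list. For the effector, T cell receptor, residency, chemokine receptor and integrin, interferon and cell cycle lists the summed CPM of all listed genes is therefore given as well. In 3 heterozygous T-like cells Ttr, the choroid plexus transcript for transthyretin, had 6480, 2512 and 543 UMIs, against at most 34 UMIs in any homozygous T-like cell. These 3 cells held 40.9% of the heterozygous T-like UMIs, and the choroid plexus list stood at 70831 CPM in heterozygous and 1686 CPM in homozygous T-like cells. Cells of over 10000 UMIs held 47.5% and 43.3% of the T-like UMIs. The ratios were therefore also computed with equal weight per cell, in cells of at most 10000 UMIs and without the 3 cells. Of the 153 higher genes 52 stayed at least 1.5-fold higher, and of the 127 lower genes 40 stayed at least 1.5-fold lower, in all 3 alternatives. The summed CPM of the lists are given over all T-like cells only and not in these alternatives.

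The 24 effector cytokine and chemokine genes summed to 3036 CPM in heterozygous and 5645 CPM in homozygous T-like cells. The heterozygous sum includes the 3 cells high in Ttr, which held 40.9% of the heterozygous T-like UMIs and no Ccl5 UMI. Ccl5 gave 361 of the 462 heterozygous UMIs of the list. Of the 24 genes, 5 had 50 UMIs and these 5 were past 1.5-fold upwards, but Il17a, Ccl4 and Xcl1 reached 50 UMIs through the homozygous library. Ccl4, a chemokine of activated CD8 T cells, had 3 UMIs in 3 cells (19.7 CPM) and 87 UMIs in 9 cells (345 CPM), a ratio of 17.5 (5.80 to 86.5) that rests on the 3 heterozygous UMIs. It lay between 10.4 and 33.7 in the 3 alternatives, and Ccl4 was also higher within CD8 cells, with 2 UMIs in 2 of 6 and 64 UMIs in 8 of 19 cells. Of the 87 homozygous Ccl4 UMIs, 24 came from 1 CD8 cell and 23 from 1 cell of no subset. Xcl1, a chemokine that attracts cross-presenting dendritic cells, had 12 and 64 UMIs, a ratio of 3.22 (1.72 to 6.55), which came to 1.90 to 2.10 in the alternatives. Ccl5 had 361 UMIs in 8 cells and 913 UMIs in 18 cells, a ratio of 1.53 (1.35 to 1.73), but 0.90 without the 3 cells high in Ttr. Ltb, the membrane lymphotoxin chain, had 43 and 140 UMIs, a ratio of 1.97, with 1.25 to 1.39 in the alternatives. Il17a was at least 21.7-fold higher, set against a floor of 3 UMIs, with 75% of its UMIs in 1 cell.

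Nkg7 showed the same side within the T-like cells, where it chose no cell, since the same 24 and 38 cells met the rule without it. It had 50 UMIs in 10 of 24 heterozygous cells (329 CPM) and 217 UMIs in 25 of 38 homozygous cells (861 CPM), a ratio of 2.62 (1.92 to 3.64) and 1.68 to 2.79 in the alternatives. Of the 217 UMIs, 21 came from the T-like cell with 36 Gzma UMIs. The 26 genes of the T cell receptor complex and its proximal signalling summed to 5737 and 7846 CPM, and of the 14 with 50 UMIs 5 were higher and none was lower. Over all T-like genes compared, 14.6% were higher. The list includes genes of the rule such as Cd3e and Trbc2, and Cd3e, 1 of the 5, also set the T-like gate. The sum and the count are therefore partly descriptive. Cd3e at 1.79, Trac at 1.99, Lat at 2.11 and the phosphatase Ptprc (CD45) at 1.56 all fell under 1.5-fold in each alternative. Cd3d at 1.43, Cd3g at 1.40 and Trbc2 at 1.10 were within 1.5-fold. Of the 4 measured cytotoxic granule genes only Nkg7 was past the fold, and Srgn, the granule proteoglycan with the most UMIs, stood at 0.97.

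Several adhesion and residency genes were higher. Rgs1, a brake on chemokine receptors that is frequent in tissue T cells, had 13 UMIs in 6 cells and 59 UMIs in 17 cells, a ratio of 2.74 (1.49 to 5.45). Itgb1 and Itga4, which together form the integrin VLA-4 that binds VCAM-1 on brain vessels, had ratios of 1.89 and 1.81, with 30 and 94 UMIs and 24 and 72 UMIs. Itgb1 stayed past the fold in the alternatives and Itga4 fell to 1.43 without the 3 cells high in Ttr. Cxcr6, a chemokine receptor of tissue-resident T cells, was at 1.85, and 1.04 in cells of at most 10000 UMIs. Within CD8 cells it stood at 162 CPM in the heterozygous and 105 CPM in the homozygous library. In CD4 cells it stood at 0 and 50.4 CPM, and in cells of no subset at 105 and 238 CPM. The 3 homozygous gamma delta cells held 22 Cxcr6 UMIs, and the heterozygous ones held 0. The 18 tissue residency genes summed to 1084 CPM in heterozygous and 1591 CPM in homozygous T-like cells. The 23 chemokine receptor and integrin genes summed to 1597 and 1987 CPM. Of the measured genes, 2 of 4 residency genes and 3 of 4 chemokine receptor and integrin genes were higher and none was lower. The share of higher genes over all T-like genes was 14.6%. The residency list median was 1.60, and 0.97 without the 3 cells high in Ttr. Cd69, an early activation and retention marker, had 59 and 118 UMIs, a ratio of 1.21. Of 8 measured homing and egress genes 2 were higher (Itga4 and Itgb1) and 1, Klf3, was lower at 0.56, while Klf2, a driver of egress, stood at 1.05 and Selplg at 0.76. The fibroblast list had 256 and 651 CPM, the monocyte list 598 and 1031 CPM and the microglia list 302 and 655 CPM in the T-like cells. Homozygous T-like cells of 17584, 12685, 13664 and 26877 UMIs held 30, 95, 17 and 11 of the 164 homozygous fibroblast list UMIs. The same cells held 23, 57, 4 and 44 of the 165 microglia list UMIs. They are left out in the alternative of at most 10000 UMIs per cell. The part of these lists and cells in the differences was not tested.

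The 36 interferon response genes summed to 2274 CPM in heterozygous and 4363 CPM in homozygous T-like cells, and the 7 of them with 50 UMIs were past 1.5-fold upwards. Over all T-like genes the share of higher genes was 14.6%, and the counts by list given here rest on few genes. Isg15, a ubiquitin-like interferon target, had 7 and 52 UMIs, a ratio of 4.48, with 71.2% of its UMIs in 1 cell, and 0.56 in cells of at most 10000 UMIs. Ly6a at 3.10, Ifi27l2a at 2.33, Ifi203 at 1.88, Ly6e at 1.65 and Bst2 at 1.56 each dropped under 1.5-fold in at least 1 alternative. Of the 10 measured MHC class I genes, 3 were higher: H2-Q7 at 2.06, Tapbp at 1.91 and Psmb9 at 1.52, with B2m at 1.44 and H2-K1 at 1.14. Reads of H2 genes, many of which are near copies, are uncertain in their assignment, and none of the 3 stayed past the fold in all alternatives. The 26 cell cycle genes summed to 1419 and 3733 CPM, and the 4 of them with 50 UMIs were higher, with Stmn1 at 5.23, H2az1 at 2.21, Tubb5 at 2.05 and Hmgb2 at 1.995. Only H2az1 stayed past the fold in all 3 alternatives, and 57.5% of the Stmn1 UMIs came from 1 cell.

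Among transcription factors 2 of 11 measured genes were higher and 1 lower, near the shares over all T-like genes of 14.6% and 12.1%. Id3, an inhibitor of E proteins, had 19 UMIs in 5 cells and 67 UMIs in 12 cells, a ratio of 2.13 (1.26 to 3.75) that lay between 2.17 and 2.77 in the alternatives. Ikzf1 was at 1.81 but 1.22 in cells of at most 10000 UMIs. Ikzf2 (Helios), found in regulatory and innate-like T cells, had 32 UMIs in 4 cells and 23 UMIs in 11 cells, a ratio of 0.43 that stayed between 0.26 and 0.40, and 29.1% of its UMIs came from 1 cell. Id2 at 0.95 and Ets1 at 0.85 were the factors of the list with the most UMIs.

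Several genes were lower in homozygous T-like cells over all cells and in the 3 alternatives. Fos, an immediate-early gene, had 125 UMIs in 17 of 24 heterozygous cells (821 CPM) and 103 UMIs in 24 of 38 homozygous cells (409 CPM), a ratio of 0.50 (0.38 to 0.65) and 0.29 to 0.39 in the alternatives. It was lower in CD8 cells (865 and 269 CPM), in CD4 cells (1336 and 101 CPM) and in cells of no subset (573 and 356 CPM). Btg2, an antiproliferative early gene, was at 0.59. These were the 2 lower genes of 19 measured immediate-early and dissociation genes, none of which was higher, a share of lower genes near the 12.1% over all T-like genes. In that list Btg1 at 1.003 and Hspa8 at 0.90 had the most UMIs. The median ratio of the list was 0.90, beside 1.03 over all genes compared. Txnip, an inhibitor of thioredoxin and glucose uptake, had 86 UMIs in 17 cells (565 CPM) and 48 UMIs in 24 cells (190 CPM), a ratio of 0.34 (0.23 to 0.49), and it too was lower in CD8 cells (622 and 197 CPM), CD4 cells (553 and 25.2 CPM) and cells of no subset (561 and 238 CPM).

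Ctla2a, a protease inhibitor gene found in T cells and endothelium, had 45 UMIs in 13 cells and 20 UMIs in 10 cells, a ratio of 0.27 (0.15 to 0.46). The endothelial marker list stood at 1577 CPM in heterozygous and 821 CPM in homozygous T-like cells. Of its 240 heterozygous UMIs, the 3 cells high in Ttr held 141, 50 and 13. Without these cells the Ctla2a ratio was 0.16. The part of the endothelial list in the Ctla2a difference was not tested. Ifngr1, the interferon gamma receptor chain, had 48 and 44 UMIs, a ratio of 0.55 that was 0.37 to 0.44 in the alternatives, and it was the sole lower gene of 4 measured cytokine receptors, with Il7r at 0.71 and Il2rg at 1.17. Of the genes with at most 25% of their UMIs in 1 cell, the 10 lowest besides Ctla2a and Txnip were Psmd8, Gsn, Ndufc2, Ndufa8, Timm13, Rnf7, Aplp2 and Ezr, at 0.37 to 0.44. The 10 highest included Cd8b1, Cd8a, Tcf4, Samhd1, Sars, Rgs1, Resf1 and Nkg7, at 2.62 to 3.94. All 10 of the latter stayed past 1.5-fold in the 3 alternatives, as did 7 of the 10 lowest genes, all but Gsn, Ndufc2 and Rnf7. In cells with no C1q UMI Tcf4 turned to 0.45. The costimulation list had no gene past the fold among 4 measured, with Cd28 at 0.89 and Cd2 at 0.86.

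Oxidative phosphorylation genes were lower on the sum of all cells, 7 of 20 measured and none higher, with a median ratio of 0.74. The median was 1.12 without the 3 cells high in Ttr, and Cox4i1, Ndufa4 and Atp5j, at 0.59, 0.58 and 0.59 over all T-like cells, then stood at 1.02, 1.11 and 1.13. The other 4 lower genes, Ndufs5, Atp5b, Uqcrq and Cox5a, were at 0.54 to 0.64 and at 0.73 to 0.9997 without those cells. The glycolysis genes Pgk1 at 0.43 and Pkm at 0.58, 2 of 7 measured with none higher, came to 0.75 and 0.83, beside Gapdh at 0.91 and Aldoa at 0.77 over all T-like cells. The adaptors Tyrobp at 0.33 and Fcer1g at 0.43, which NK cells and macrophages share, were lower as well, 2 of 5 measured NK receptor and adaptor genes. Of the Tyrobp UMIs 46.3% came from 1 cell, and its ratio was 1.06 in cells of at most 10000 UMIs, while Klrd1 at 0.89 and Hcst at 1.38 stayed within 1.5-fold. The X-linked helicase gene Ddx3x, the single measured gene of the sex-linked list, was at 1.55. In the steroid and stress hormone list Txnip was the 1 lower gene of 4, and the inhibitory receptor and IL-34 and CSF lists had no gene with 50 UMIs.

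**Figure D5:**
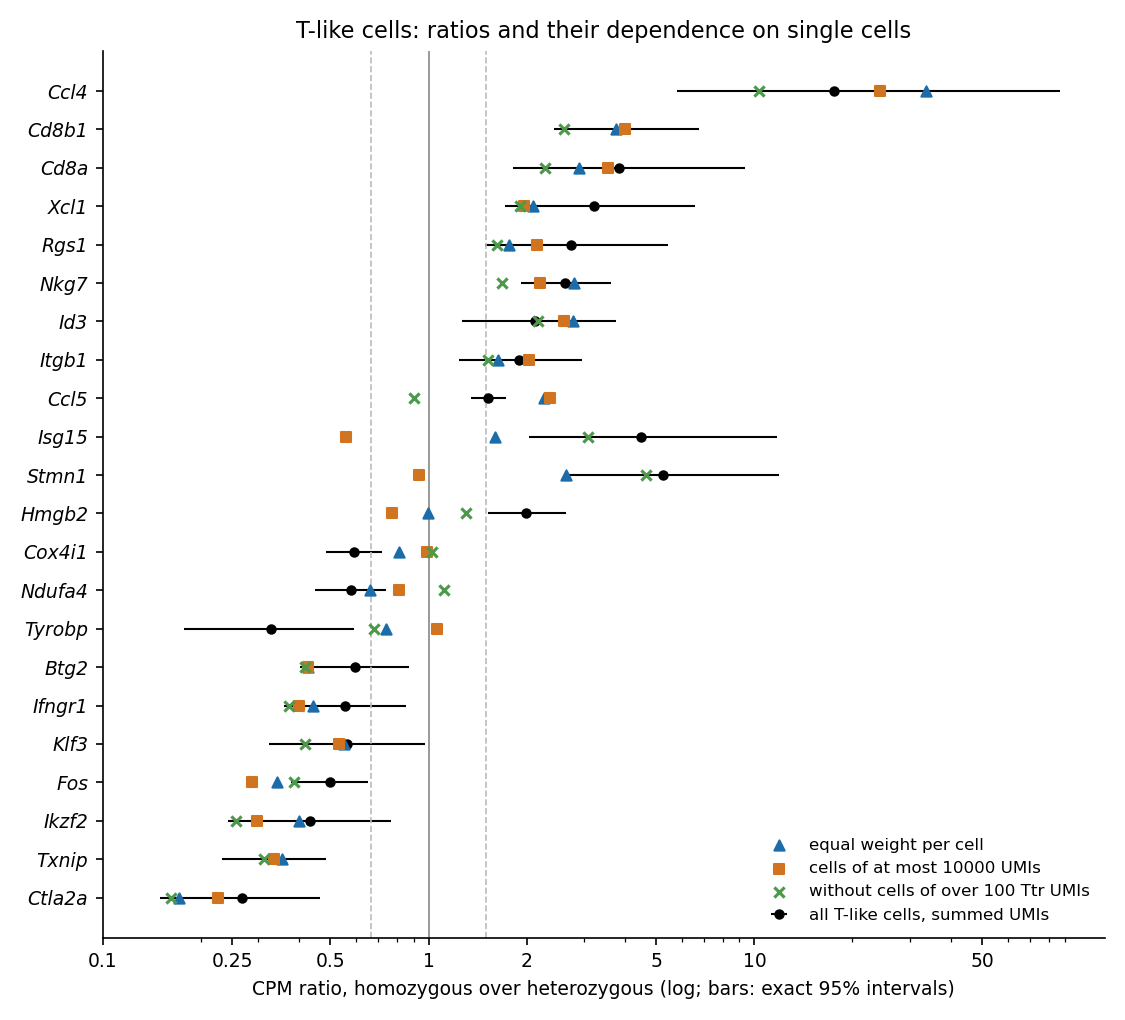
Ratios of CPM, homozygous over heterozygous (log axis), in T-like cells for 22 genes, with exact 95% counting intervals on the value over all cells (black) and the ratio under 3 alternatives (triangles, squares and crosses). Dashed lines mark 1.5-fold in each direction: Cd8b1, Ccl4, Nkg7 and Id3 stay to the right of it and Fos, Txnip and Ctla2a to the left, while Ccl5, Isg15, Stmn1, Hmgb2, Cox4i1, Ndufa4 and Tyrobp reach or cross the line of no difference under at least 1 alternative.

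Within the NK-like cells, 8 against 13, 190 genes had 50 UMIs, of which 23 (12.1%) were higher and 17 (8.95%) lower by 1.5-fold in the homozygous library, with a median ratio of 1.08. These counts were 14 and 24 under median-ratio scaling, and 29 and 13 per total without mitochondrial, ribosomal and rule genes. One heterozygous cell of 15452 UMIs held 40.4% of the heterozygous NK-like UMIs. Markers of other cells differed as well: the endothelial list, with all 8 genes detected in both libraries, had 4811 and 1981 CPM, the microglia list (6 and 3 of 9 genes) 680 and 233 CPM and the monocyte list (5 and 5 of 8 genes) 601 and 1573 CPM. Of the endothelial UMIs, 2 heterozygous NK-like cells held 90 and 84 of 184, and 1 homozygous cell held 60 of 68. The part of these cells and lists in the NK-like ratios was not tested. Prf1 had 17 UMIs in 5 cells and 36 UMIs in 7 cells, a ratio of 2.36 (1.29 to 4.48) that was 1.96 without the deepest cell of each library. Ccl5 had 464 and 668 UMIs, a ratio of 1.60 (1.42 to 1.81) that was 1.27 without them. Tyrobp at 1.57 and Fcer1g at 1.62, the signalling adaptors of the activating receptors, came to 1.03 and 1.17. Klra8 (Ly49H), the receptor for a mouse cytomegalovirus protein, had 23 and 38 UMIs, a ratio of 1.84 that was 1.38 without those cells. Since Klra8 is a gene of the NK-like gate, its ratio is descriptive. In NK-like cells with no C1q UMI, Ccl5, Fcer1g, H2-D1 and Klra8 turned to 0.79, 0.68, 0.97 and 0.90. Reads of the Klra genes are uncertain among near-identical copies.

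Id2, a factor needed for NK cell maturation, was at 1.94 and kept 1.89 without the deepest cells, and H2-D1 at 1.94 and B2m at 1.70 came to 1.51 and 1.47. Gzma at 1.44, Nkg7 at 1.27 and Ccl4 at 0.75 were within 1.5-fold. Of the function lists, 3 of 7 measured NK receptor and adaptor genes were higher and none lower, and 1 of 4 cytotoxic granule genes, Prf1. Klra8, 1 of the 3 higher receptor and adaptor genes, set the NK-like gate, as did Klre1 and Klra4, so that count is partly descriptive. Lower genes included the CD45-associated adaptor Ptprcap at 0.63, Rpl5 at 0.63, Cox4i1 at 0.65 and Hmgb2 at 0.43, the last with 58.0% of its UMIs in 1 cell.

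Over all 110 cells together 2541 genes had 50 UMIs, 309 (12.2%) were higher and 337 (13.3%) lower, and 54.6% of the homozygous UMIs came from intermediate cells. Per total without mitochondrial, ribosomal and rule genes these counts were 365 and 259. Mpo, the myeloperoxidase of granulocyte progenitors, had 2 UMIs in the heterozygous and 355 in the homozygous members, and Ctsg, another granule protease, had 4 and 215. Neither had a UMI in the T-like and NK-like cells. The 26 cell cycle genes summed to 2711 and 7196 CPM, with Mki67 at 2 and 80 UMIs and Top2a at 6 and 204. Of the higher genes over all members 45 were also higher in T-like cells, 14.6% of the members' list and 29.4% of the T-like list. Of the lower genes 68 were shared, 20.2% and 53.5%. Klra4, a Ly49 receptor of NK cells, and Ctla2a stood at 0.33 and 0.34 among the 10 lowest genes. Nkg7 was at 0.93 over all members and at 1.41 without the intermediate cells.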

How the data were processed

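Values are UMI counts per gene and barcode for 2 libraries; the authors deposited raw count matrices of 25827 genes, per the file headers from Cell Ranger 5.0.0, with build GRCm38.p6 (mm10) per the submitters' processing notes. Free RNA and doublets had not been removed as far as these sources say, and no correction for free RNA was applied here. Cells were filtered as the report states. UMIs were summed over the cells of a gate and library and divided by the gate's total (CPM). Intervals are exact at 95%: Poisson for a level, Clopper-Pearson for a share, and conditional binomial for a ratio of 2 summed counts. The ratio function was tested on simulated data. With 1 library per genotype no test between genotypes was run, and "higher" and "lower" mean at least 50 UMIs over both libraries and a ratio past 1.5-fold. Lists of genes were described by counts and medians, with a gene at 0 UMIs in 1 library set against a floor of 3 UMIs. The members and the gene lists were chosen with earlier results of these data known. Genes named were those of the rule, list members past the fold or with the most UMIs, the 10 highest and 10 lowest ratios among genes with at most 25% of their UMIs in 1 cell, the leading genes and the markers of each gate. Gamma constant genes that the marker lists give by older symbols (Tcrg-C1 and others) were read under the files' symbols (Trgc1 and others). Leiden clusters used 1000 variable genes, 15 principal components and a resolution of 1 (scanpy 1.11.5, leidenalg 0.10.2). Scrublet was run per library at an expected rate of 10% and called 1073 heterozygous and 1193 homozygous barcodes. Promoter sequences are from RefSeq (4 of the 5 rule genes matched) and positions from GENCODE vM21, which held 25651 of the 25827 gene identifiers. Other scripts used Python 3.11.15, numpy 2.4.6, scipy 1.17.1, pandas 2.3.3 and matplotlib 3.10.9. Values of some single genes are not reported here.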

Additional observations from a re-analysis of the deposited data

Results flagged for a closer look

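Barcodes outside the cell filters also held T and NK transcripts: 7 heterozygous and 6 homozygous barcodes met the marker rule but failed a filter, a signal in data that the comparisons did not use. Of the 7, 4 were T-like and 3 NK-like, 4 had under 1000 UMIs and 3 had over 10% mitochondrial UMIs. Of the 6, 5 were T-like and 1 NK-like, with 1 under 1000 UMIs and 5 over 10% mitochondrial UMIs. None of the 13 was intermediate.

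For 8 genes the counting intervals of the T-like and the NK-like ratio (homozygous over heterozygous) lay on different sides of 1, and the difference between the 2 ratios was not tested. Fcer1g stood at 0.43 in T-like and 1.62 in NK-like cells, and Tyrobp at 0.33 and 1.57. Hmgb2 was at 1.995 and 0.43, and Slc38a2, an amino acid transporter, at 1.89 and 0.27, with 58.0% and 73.9% of the NK-like UMIs in 1 cell. The iron storage gene Fth1 was at 0.88 and 1.76. The mitochondrial genes mt-Co1 at 0.86 and 1.75, mt-Atp6 at 0.88 and 1.46 and mt-Co3 at 0.92 and 1.38 lay on the same sides as Fth1.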

How the results depend on the processing

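Of 211 recomputed shares, counts of genes and cluster numbers, 148 stayed within their interval or 1.5 times the reported count and 63 moved. Of 2158 recomputed gene ratios and list medians, 1863 stayed within their counting interval (medians within 1.5-fold), 244 moved and 51 changed side. The cells of at most 10000 UMIs, the cells without many Ttr UMIs and the members without intermediate cells were alternatives chosen after seeing the data. The members' share was 0.714% of heterozygous and 0.921% of homozygous cells at a mitochondrial limit of 5%, 0.524% of homozygous cells at 20%, 0.216% and 0.358% with no C1q UMI allowed, and 0.295% and 0.377% without Nkg7 in the rule. Without Nkg7 the T-like share was 92.3% and 97.4% and the NK-like share 3.85% and 0%, so NK-like genes could not be compared there. After thinning the T-like share was 34.2% and 31.9%, and at a 5% mitochondrial limit the heterozygous CD8 share was 7.14%.

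Counts of genes past the fold are given as higher and lower. Over all members they were 127 and 136 with no C1q UMI, 146 and 137 without Nkg7, 17 and 10 after thinning, 981 and 991 from 20 UMIs, 131 and 108 from 100 UMIs, 127 and 85 at 2-fold, 38 and 74 in cells of at most 10000 UMIs, and 132 and 138 without intermediate cells. The lower count alone was 190 at the 5% mitochondrial limit and 537 with T-like and NK-like cells weighted equally. In T-like cells they were 61 and 64 at the 5% mitochondrial limit, 29 and 14 with no C1q UMI, 6 and 3 after thinning, 672 and 448 from 20 UMIs, 42 and 42 from 100 UMIs, 49 and 54 at 2-fold, and 35 and 45 in cells of at most 10000 UMIs. In NK-like cells they were 10 and 3 after thinning, 85 and 84 from 20 UMIs, 15 and 4 from 100 UMIs, 1 and 5 at 2-fold, 14 and 7 in cells of at most 10000 UMIs, 10 and 9 without Scrublet doublets, and 9 and 5 without the deepest cell of each library. The NK-like lower count was 4 with no C1q UMI and 11 from 2000 UMIs per cell, and the higher count 14 under median-ratio scaling. Fewer cells or UMIs leave fewer genes to compare in most of these settings.

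The ratios that changed side follow, and the cause was not tested. In T-like cells with no C1q UMI, Rnf7 was at 2.90, Tcf4 0.45, Tyrobp 2.01, Cxcr6 0.99, Isg15 0.67, Ly6e 0.96, Cox4i1 1.11 and Atp5j 1.58. After thinning, Cd3e was at 0.71, Rnf7, Fcer1g and Tyrobp 1.13, Cxcr6 0.57, Isg15 0.38, H2az1 0.88, Hmgb2 0.49, Tubb5 0.75, Cox4i1 1.23, Atp5b 1.27 and Pkm 2.26. In cells of at most 10000 UMIs, Gsn was at 1.12, Tyrobp 1.06, Isg15 0.56, Ly6e 0.74, Stmn1 0.93 and Hmgb2 0.77, and with equal weight per cell Hmgb2 was at 0.999. Without the cells high in Ttr, Ccl5 was at 0.90, Ndufa4 1.11, Cox4i1 1.02, Atp5j 1.13 and the median of the tissue residency list 0.97. In NK-like cells with no C1q UMI, H2-D1 was at 0.97, Klra8 0.90, Fcer1g 0.68, Ccl5 0.79 and Hmgb2 1.09. After thinning, H2-D1 was at 0.91, Id2 0.82, B2m 0.89, Fcer1g 0.73, Tyrobp 0.91 and Hmgb2 1.02. Without Scrublet doublets, Tyrobp was at 0.92, Ccl5 0.94 and Hmgb2 1.13. Hmgb2 was at 1.33 in NK-like cells of at most 10000 UMIs and 1.46 without the deepest cells, and mt-Co1 at 0.999 at the 5% mitochondrial limit. Over all members Klra4 was at 1.14 with no C1q UMI and Mpo at 0.65 in cells of at most 10000 UMIs.

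No paired analysis was possible because each genotype had 1 library, and for the same reason no library could be left out. The median log2 ratio over the genes compared was 0.05 in T-like and 0.11 in NK-like cells, both 0 by construction under median-ratio scaling, and 0.15 in T-like cells at the 20% mitochondrial limit. The depth of 152179 and 252092 T-like UMIs limits the comparison to genes of high level: a gene at 0 could still be at 19.7 or 11.9 CPM.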
